A study of Arabidopsis thaliana with 6 samples.

Results

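CBF1 (AT4G25490), CBF2 (AT4G25470) and CBF3 (AT4G25480) are 3 genes in tandem on chromosome 4 of Arabidopsis thaliana, which the peak files call DREB1B, DREB1C and DREB1A. They were chosen by identifier, with their calls and fold enrichments in these data already known, and followed through 4 lists of anti-FLAG ChIP-seq peaks, where 12 of 35456 peaks were assigned to them. All 3 genes had a peak in each list. The peaks at CBF1 and CBF2 were far stronger in seedlings carrying FLAG-tagged CND1 than in untagged seedlings, and CBF3, between them, had a weaker peak in all 4 lists.

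The series compares seedlings of genotype pCND1-Flag/cnd1-3, here CND1-FLAG, with untagged Col-0 seedlings, each with 2 ChIP libraries and 1 input library. Each ChIP library has 1 peak list, and all 4 were used. The cnd1-3 allele is carried by the tagged plants and not by Col-0, so allele, transgene and tag all differ between the genotypes. Chromatin of both was fixed with 1% formaldehyde for 10 minutes and sonicated. The labels give no age, growth temperature or transgenic line, and whether the 2 replicates of each genotype are separate plant material is not stated. Spread between libraries may therefore be technical. The Col-0 lists give the background that antibody and chromatin yield without the tag.

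The CBF proteins are transcription factors of the AP2/ERF family, of the group called DREB1. They bind the C-repeat, or dehydration-responsive, element in the promoters of cold-regulated (COR) genes, and raise the freezing tolerance of the plant. Their own genes are transcribed weakly in the warm and are switched on rapidly by cold. Regulators of these genes include the bHLH activator ICE1 and the calmodulin-binding CAMTA factors.

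Each list rests on a different number of fragments, so the count behind each summit was worked out from the deposited fold and p-value. The genome-wide mean pile-up, that is the number of fragments over an average position, was 27.6 and 25.2 in CND1-FLAG replicates 1 and 2, against 55.4 and 55.3 in Col-0 replicates 1 and 2. The tagged libraries were the shallower ones. Below, a summit pile-up is given in fragments, with an exact Poisson interval of 95% that covers counting error only, and as a multiple of the genome-wide mean of its own library. Fold enrichment is the deposited value, the summit over its local background, and belongs to its own list.

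The 3 genes lie on the minus strand in the order CBF1, CBF3, CBF2 from 5′ to 3′, over 7747 bp of TAIR10. CBF1 runs from 13021780 to 13022996, CBF3 from 13018010 to 13019400 and CBF2 from 13015250 to 13016235. The gap between CBF1 and CBF3 measures 2379 bp and that between CBF3 and CBF2 1774 bp. Peaks covered 51.9% and 47.9% of this span in CND1-FLAG replicates 1 and 2, against 26.3% and 26.1% in Col-0 replicates 1 and 2.

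**Figure D1:**
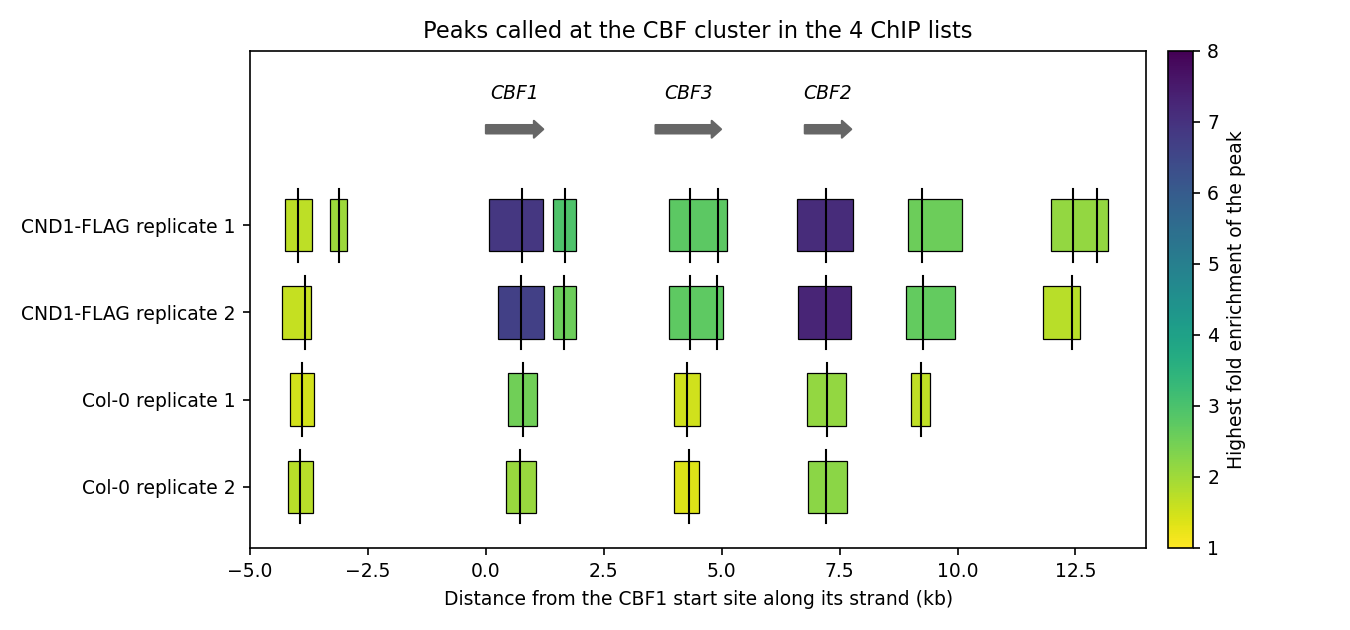
Peaks around the CBF genes in each ChIP list (rows), by distance from the CBF1 start site along its strand in kb. Boxes are peaks coloured by their highest fold enrichment, vertical lines are summits and arrows are the genes. The peaks over CBF1 and CBF2 reach folds of 6.66 to 7.29 in the CND1-FLAG rows against 2.08 to 2.51 in the Col-0 rows, and the peak between CBF1 and CBF3 is present in the CND1-FLAG rows alone.

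The first question was whether each gene was called in both genotypes. All 3 were called in all 4 lists, and none was called in the tagged lists alone. Of 37899 annotated nuclear genes, 6.58% had a peak in all 4 lists, 18.3% had one in both CND1-FLAG lists, and 7.79% had one in both of these and in no Col-0 list. The share of nuclear genes with a peak was 25.9% and 21.9% in CND1-FLAG replicates 1 and 2, against 13.7% and 12.9% in Col-0 replicates 1 and 2. The 3 genes were chosen with these lists known, so their count is a description. CBF3 was the gene nearest to leaving the Col-0 lists: its −log10 q there was 3.33 in replicate 1 and 1.96 in replicate 2, where the lowest value of a list is 1.30.

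At CBF2 the tagged peaks spanned 13015205 to 13016409 and 13015253 to 13016374 in replicates 1 and 2, against 13015353 to 13016194 and 13015330 to 13016172 in Col-0 replicates 1 and 2. The tagged peaks held 100% and 99.7% of the gene and passed its start by 174 and 139 bp. The Col-0 peaks held 85.4% and 85.5% of it and ended 41 and 63 bp inside the start. All 4 strongest summits lay within 27 bp of each other, 445 to 472 bp downstream of the start, near the middle of the gene.

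The fold at CBF2 was 7.14 and 7.29 in CND1-FLAG replicates 1 and 2, against 2.13 and 2.23 in Col-0 replicates 1 and 2. Its −log10 q was 221 and 205 in the tagged lists, against 17.3 and 21.3 in the Col-0 lists. CBF2 was the strongest of the 3 genes in both tagged lists. It stood at rank 30 of 13044 peaks by fold in CND1-FLAG replicate 1 and at rank 27 of 10538 in replicate 2, against rank 475 of 6152 in Col-0 replicate 1 and rank 338 of 5722 in replicate 2. Ranks describe the place within a list, since the lists differ in length.

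Counted as fragments, the CBF2 summit held 458 (417 to 502) in CND1-FLAG replicate 1 and 420 (381 to 462) in replicate 2. It held 264 (233 to 298) in Col-0 replicate 1 and 282 (250.04 to 317) in replicate 2. As multiples of the genome-wide mean these are 16.6 and 16.7 in CND1-FLAG, against 4.76 and 5.10 in Col-0. With the SD over n = 2 libraries each, the means were 16.6 ± 0.0699 in CND1-FLAG and 4.93 ± 0.237 in Col-0, and their ratio was 3.38. Both tagged libraries were above both Col-0 libraries, as at 80.1% of the 2495 nuclear genes called in all 4 lists. The ratio at CBF2 lay between 3.26 and 3.51 over the 4 pairs of libraries. The local background was alike, at 2.29 and 2.26 times the genome-wide mean in CND1-FLAG and 2.22 and 2.27 times in Col-0.

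At CBF1 the tagged peaks ran from 13021786 to 13022935 and from 13021771 to 13022738 in replicates 1 and 2, against 13021908 to 13022528 and 13021934 to 13022579 in the Col-0 replicates. No peak reached the start of the gene: the tagged peaks ended 61 and 258 bp inside it and the Col-0 peaks 468 and 417 bp inside it. The summits lay 764 and 736 bp downstream of the start in CND1-FLAG, against 786 and 718 bp in Col-0. They fell past the middle of the gene, at 59.0% to 64.6% of its length, and within 68 bp of each other.

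CBF1 had a fold of 6.88 and 6.66 in CND1-FLAG replicates 1 and 2, against 2.51 and 2.08 in Col-0 replicates 1 and 2. Its −log10 q was 163 and 136 in the tagged lists, against 19.5 and 10.4 in the Col-0 lists. By fold it ranked 35 of 13044 and 36 of 10538 tagged peaks, against 178 of 6152 and 553 of 5722 Col-0 peaks. By fold CBF2 stood just above CBF1 in both tagged lists, while in Col-0 CBF1 was above CBF2 in replicate 1 and below it in replicate 2.

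The CBF1 summit held 347 fragments (311 to 386) in CND1-FLAG replicate 1 and 297 (264 to 333) in replicate 2, against 207 (180 to 237) in Col-0 replicate 1 and 170 (145 to 198) in replicate 2. This was 12.6 and 11.8 times the genome-wide mean in CND1-FLAG, against 3.73 and 3.07 times in Col-0. The means were 12.2 ± 0.543 in CND1-FLAG and 3.40 ± 0.467 in Col-0 (n = 2 each, ± SD). Their ratio was 3.58, with 3.16 to 4.09 over the 4 pairs. The groups did not overlap, and the tagged one was higher, as at 80.1% of the 2495 nuclear genes called in all 4 lists. Here the local background was somewhat higher in the tagged lists, at 1.80 and 1.74 times the genome-wide mean against 1.47 and 1.47 times in Col-0.

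CBF3 differed from its neighbours. Its tagged peaks, from 13017891 to 13019107 and from 13017977 to 13019110 in replicates 1 and 2, were as wide as those of CBF1 and CBF2 but lower, and each held 2 summits. The Col-0 peaks, from 13018447 to 13019017 and from 13018475 to 13019004, were 571 and 530 bp wide with 1 summit. The stronger tagged summit lay 734 and 724 bp downstream of the start, against 671 and 707 bp in Col-0, in the middle of the gene. The weaker tagged summit lay near its end, at 95.9% and 93.4% of the gene's length, with a fold of 1.57 and 1.51.

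The highest fold at CBF3 was 2.75 and 2.74 in CND1-FLAG replicates 1 and 2, against 1.51 and 1.38 in Col-0 replicates 1 and 2. It ranked 747 of 13044 and 648 of 10538 tagged peaks, against 4875 of 6152 and 5588 of 5722 Col-0 peaks. CBF3 was thus in the top 5.73% and 6.15% of the tagged lists, while 79.2% and 97.7% of the Col-0 lists were needed to reach it.

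In raw fragments CBF3 did not stand higher in the tagged libraries. Its summit held 150 (127 to 176) and 134 (112 to 159) in CND1-FLAG replicates 1 and 2, against 166 (142 to 193) and 157 (133 to 184) in Col-0 replicates 1 and 2. Set against the depth of each library it was 5.44 and 5.33 times the genome-wide mean in CND1-FLAG, against 2.99 and 2.84 times in Col-0. The means were 5.38 ± 0.0771 in CND1-FLAG and 2.92 ± 0.110 in Col-0 (n = 2 each, ± SD). Their ratio was 1.85, with 1.78 to 1.92 over the 4 pairs of libraries. The local background was 1.95 and 1.92 times the genome-wide mean in CND1-FLAG and 1.97 and 2.05 times in Col-0.

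**Figure D2:**
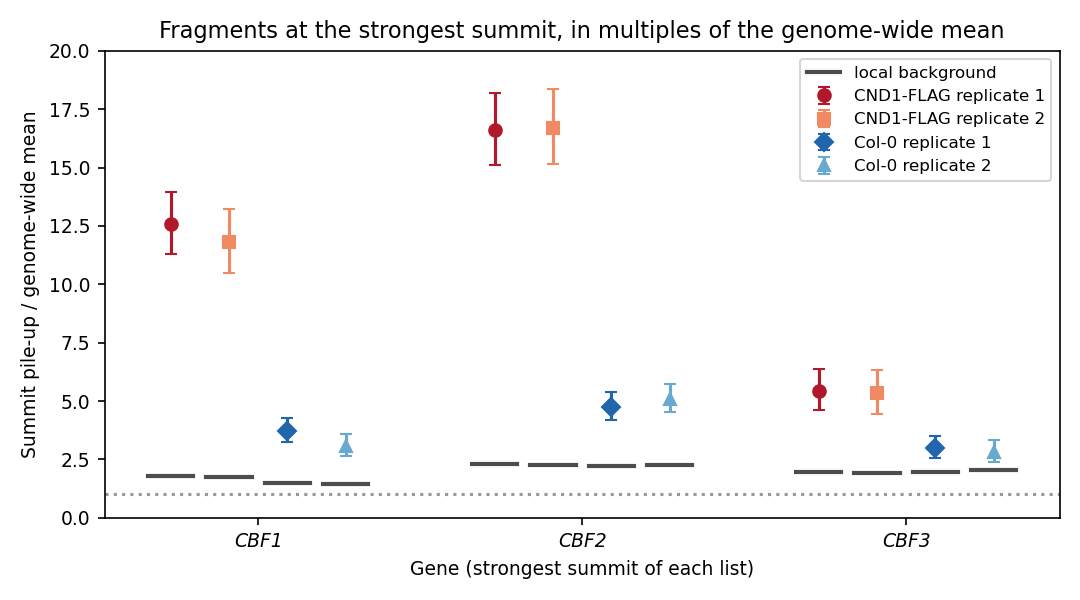
Summit pile-up of CBF1, CBF2 and CBF3 in multiples of the genome-wide mean of each library, with exact Poisson intervals of 95% for counting error (error bars). Grey bars are the local background and the dotted line is the genome-wide mean. The CND1-FLAG points lie at 11.8 to 16.7 for CBF1 and CBF2 and at 5.33 to 5.44 for CBF3, all above the Col-0 points of 2.84 to 5.10.

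In both genotypes the pile-up over the genome-wide mean ran in the order CBF2, CBF1, CBF3. In CND1-FLAG each step was larger than the spread between the libraries. In Col-0 the step from CBF1 to CBF3, 3.40 ± 0.467 against 2.92 ± 0.110, was about the size of that spread, and the counting intervals of the genes overlapped in both replicates, so their order there was not resolved. Coding regions of the 3 genes are similar in sequence. How reads that match more than 1 of them were placed is not stated, and an exchange of reads between the genes was not tested.

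Higher tagged values were the common state of genes called in all 4 lists. Among 2495 such nuclear genes, both tagged pile-ups over the genome-wide mean exceeded both Col-0 ones at 80.1%, and the same held for the fold at 70.1%. The tagged libraries were shallower, so a summit there could need a higher fold for a like q. In CND1-FLAG replicate 2 the weaker CBF3 summit had a fold of 1.51 and a −log10 q of 1.64. The CBF3 summit of Col-0 replicate 2 had 1.38 and 1.96. How far the calling in all 4 lists raised these shares and the ratios below was not tested. For all 3 CBF genes both measures were higher in both tagged libraries, which by itself sets them apart from few genes. The size did differ: the median ratio of the genotype means was 1.28 over the 2495 genes, with 0.965 and 1.99 at the 5th and 95th percentiles. CBF1 stood at rank 4 and CBF2 at rank 6 of 2495 by this ratio, and CBF3 at rank 182. These ranks describe genes chosen for the pattern and carry no test.

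**Figure D3:**
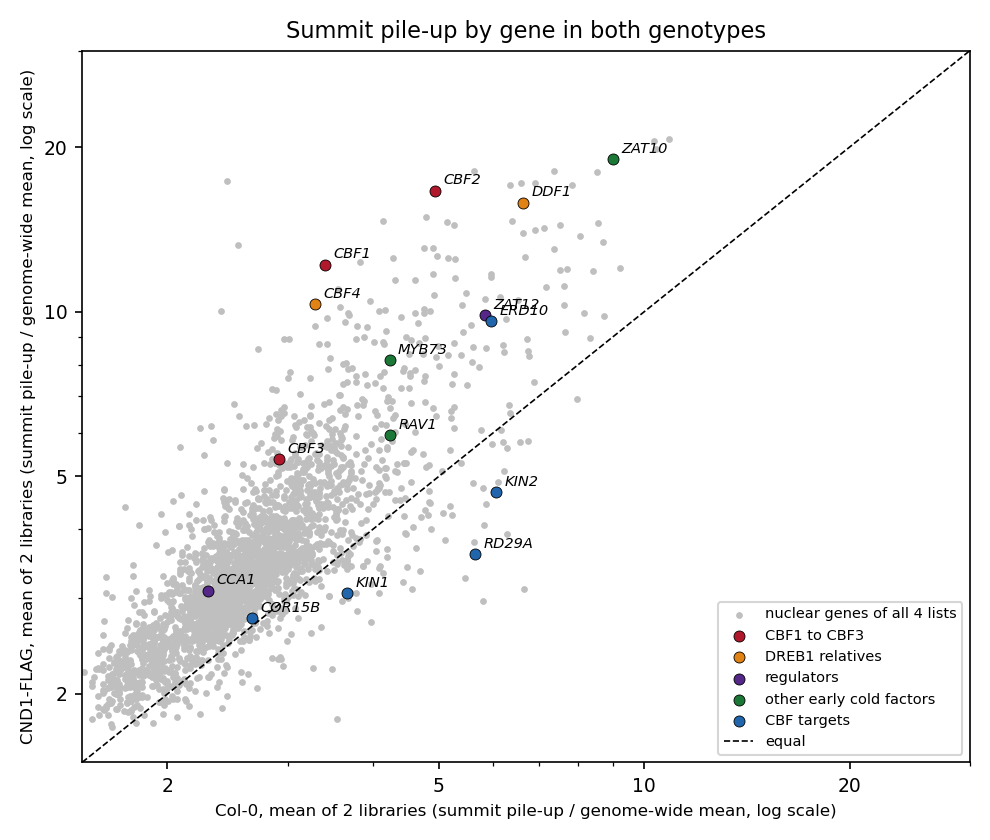
Strongest summit pile-up of each nuclear gene called in all 4 lists, as a multiple of the genome-wide mean, in CND1-FLAG (y axis, mean of 2 libraries) against Col-0 (x axis, mean of 2 libraries), both on log scales. Grey points are the 2495 genes, coloured points the CBF genes and listed cold pathway genes, and the dashed line marks equal values. CBF1 and CBF2 lie at ratios of 3.58 and 3.38 along the upper edge of the cloud, and KIN1, KIN2 and RD29A lie below the line.

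Between CBF1 and CBF3 both tagged lists held another peak, and neither Col-0 list had one there. It spanned 13021080 to 13021574 and 13021089 to 13021571 in CND1-FLAG replicates 1 and 2, beginning 205 and 208 bp beyond the annotated end of CBF1. Its summit lay 457 and 450 bp beyond that end. The authors assigned it to AT4G07395, a long noncoding RNA gene from 13020018 to 13020604 on the plus strand, whose start is 1062 and 1071 bp away. The fold was 2.96 and 2.57, and the summit held 154 fragments (131 to 180) and 128 (107 to 152), which is 5.58 and 5.09 times the genome-wide mean. This is about the level of the tagged CBF3 summits. The other RNA genes annotated between the CBF genes, AT4G07385 and AT4G03125, had no peak assigned to them. Col-0 signal at the site below the calling threshold was not measured.

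The genes on either side had weaker peaks. ABCB28 (AT4G25450), a transporter gene downstream of CBF2, had a fold of 2.57 and 2.68 in CND1-FLAG replicates 1 and 2, against 1.68 in Col-0 replicate 1 and no peak in Col-0 replicate 2. ZFWD1 (AT4G25440), a zinc finger gene beyond it, had peaks in the tagged lists alone. RS40 (AT4G25500), a splicing factor gene upstream of CBF1, had a peak near its start in CND1-FLAG replicate 1 alone, with a fold of 2.03. Another peak lay over its end in all 4 lists, with a fold of 1.71 and 1.62 in CND1-FLAG replicates 1 and 2, against 1.47 and 1.76 in Col-0 replicates 1 and 2. The authors assigned it to AT4G07405, a long noncoding RNA gene beyond RS40. AT4G25510, the next coding gene, had no peak assigned to it. Peaks above a fold of 3 within 5 kb of the cluster were those at CBF1 and CBF2, in the tagged lists.

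The other genes of the DREB1 group lie elsewhere in the genome. CBF4 (AT5G51990; chromosome 5, 21116877 to 21117860), a relative that answers to drought and abscisic acid, had a fold of 5.45 and 4.92 in CND1-FLAG replicates 1 and 2, against 1.53 and 1.65 in Col-0 replicates 1 and 2. Its pile-up was 10.6 and 10.1 times the genome-wide mean in CND1-FLAG, against 3.25 and 3.33 times in Col-0, a ratio of 3.15 and rank 9 of 2495. The CBF4 groups did not overlap, and the tagged one was higher, as at 80.1% of the 2495 genes by pile-up. The CBF4 peaks too lay over the gene body. This place was the usual one. The summit lay inside the gene at 70.9% and 71.4% of nuclear genes with a peak in CND1-FLAG replicates 1 and 2. In Col-0 replicates 1 and 2 it did so at 66.6% and 66.9%.

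DDF1 (AT1G12610; chromosome 1, 4289883 to 4291017), a relative linked to salt stress and gibberellin breakdown, had a fold of 6.11 and 6.44 in CND1-FLAG, against 2.74 and 2.72 in Col-0. Its pile-up was 15.5 and 16.1 times the genome-wide mean in CND1-FLAG, against 6.73 and 6.56 times in Col-0, a ratio of 2.38. DDF2 (AT1G63030), the closest relative of DDF1, had peaks in the tagged lists alone. Over the gene its fold was 2.32 and 2.19, and a second peak upstream, at −2933 and −3014 bp from its start, had 2.63 and 2.25. All 3 relatives were thus called in both tagged lists, against 18.3% of all nuclear genes. In all 4 lists 2 of the 3 were called, against 6.58% of all nuclear genes.

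Regulators, other early cold factors and targets were listed by role from textbook knowledge, with earlier results of these data known. Together with the 3 relatives, 12 of these 38 genes, or 31.6%, had a peak in all 4 lists, against 6.58% of all nuclear genes. In the tagged lists alone there were 3 of 38, or 7.89%, against 7.79% of all nuclear genes. Among genes of both tagged lists, the median of the highest fold was 2.63 and 2.25 for the 17 pathway genes in CND1-FLAG replicates 1 and 2, against 2.03 and 1.98 for all 6949 genes.

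Of 20 regulators of the CBF genes, 12 had no peak in any list, among them ICE1, SCRM2, CAMTA2, CAMTA3, HOS1, OST1, MYB15 and LHY. Of all nuclear genes, 66.8% had none. In all 4 lists 2 regulators were called, or 10% of them, against 6.58% of all nuclear genes. ZAT12 (AT5G59820), a zinc finger repressor, had a fold of 4.90 and 4.74 in CND1-FLAG, against 2.76 and 2.76 in Col-0. CCA1, a clock factor that binds CBF promoters, had 1.89 and 1.90 in CND1-FLAG, against 1.63 and 1.62 in Col-0. PRR5 and PIF4, repressors from the clock and from light signalling, had peaks in the 2 tagged lists and in Col-0 replicate 2, with tagged folds of 2.42 and 2.20 for PRR5 and of 1.81 and 1.83 for PIF4.

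Of 5 factors that cold induces alongside the CBF genes, 3 were called in all 4 lists, or 60%, against 6.58% of all nuclear genes. ZAT10 (AT1G27730), a zinc finger repressor, had the highest folds of any pathway gene: 7.42 and 7.58 in CND1-FLAG, against 5.63 and 4.74 in Col-0. Its pile-up was 18.2 and 19.9 times the genome-wide mean in CND1-FLAG, against 9.24 and 8.79 times in Col-0, a ratio of 2.11. ZAT10 thus exceeded CBF2 in all 4 libraries, with a smaller ratio between the genotypes. MYB73 had 4.17 and 3.58 in CND1-FLAG against 2.03 and 1.97 in Col-0, and RAV1 had 3.36 and 3.03 against 2.20 and 2.23.

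Of 10 targets of the CBF proteins, 5 were called in all 4 lists, or 50%, against 6.58% of all nuclear genes. Of these 5 targets, 3 had lower pile-ups in CND1-FLAG than in Col-0. Both tagged values lay below both Col-0 values at 3.21% of the 2495 genes by pile-up and at 5.33% by fold. KIN2 (AT5G15970), a small hydrophilic cold protein, had 4.64 and 4.73 times the genome-wide mean in CND1-FLAG, against 5.92 and 6.22 times in Col-0, a ratio of 0.772. KIN1 (AT5G15960), its neighbour in tandem, had 2.97 and 3.14 times in CND1-FLAG, against 3.72 and 3.62 times in Col-0, a ratio of 0.834. These groups did not overlap, and the summits of KIN2 lay within 75 bp and those of KIN1 within 84 bp of each other.

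RD29A (AT5G52310), a hydrophilic protein whose promoter is a standard reporter of CBF activity, had 4.39 and 2.82 times the genome-wide mean in CND1-FLAG, against 6.15 and 5.15 times in Col-0. Its ratio of 0.638 was at rank 2489 of 2495, with KIN2 at 2474 and KIN1 at 2449. The RD29A peaks were broad with 3 to 5 summits, and the strongest ones of the 4 lists lay up to 1546 bp apart, so its values compare different positions of the gene.

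Among the other targets, ERD10 (AT1G20450), a dehydrin, had a fold of 6.28 and 6.54 in CND1-FLAG, against 3.72 and 3.36 in Col-0, and a pile-up ratio of 1.61. COR15B, a chloroplast protein, had a ratio of 1.03, from summits up to 1307 bp apart. GOLS3, which makes galactinol, and COR413IM1 were called in the tagged lists alone, with folds of 1.86 and 1.85 for GOLS3 and of 1.76 and 1.83 for COR413IM1. COR413-PM1 had a fold of 2.27 in CND1-FLAG replicate 2 and no peak in CND1-FLAG replicate 1, against 2.15 and 1.92 in Col-0 replicates 1 and 2. These folds belong to different sites. The tagged peak, from 6950709 to 6951110, did not overlap the Col-0 peaks, from 6950075 to 6950431 and from 6950102 to 6950487. COR15A and COR47 had no peak in any list.

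**Figure D4:**
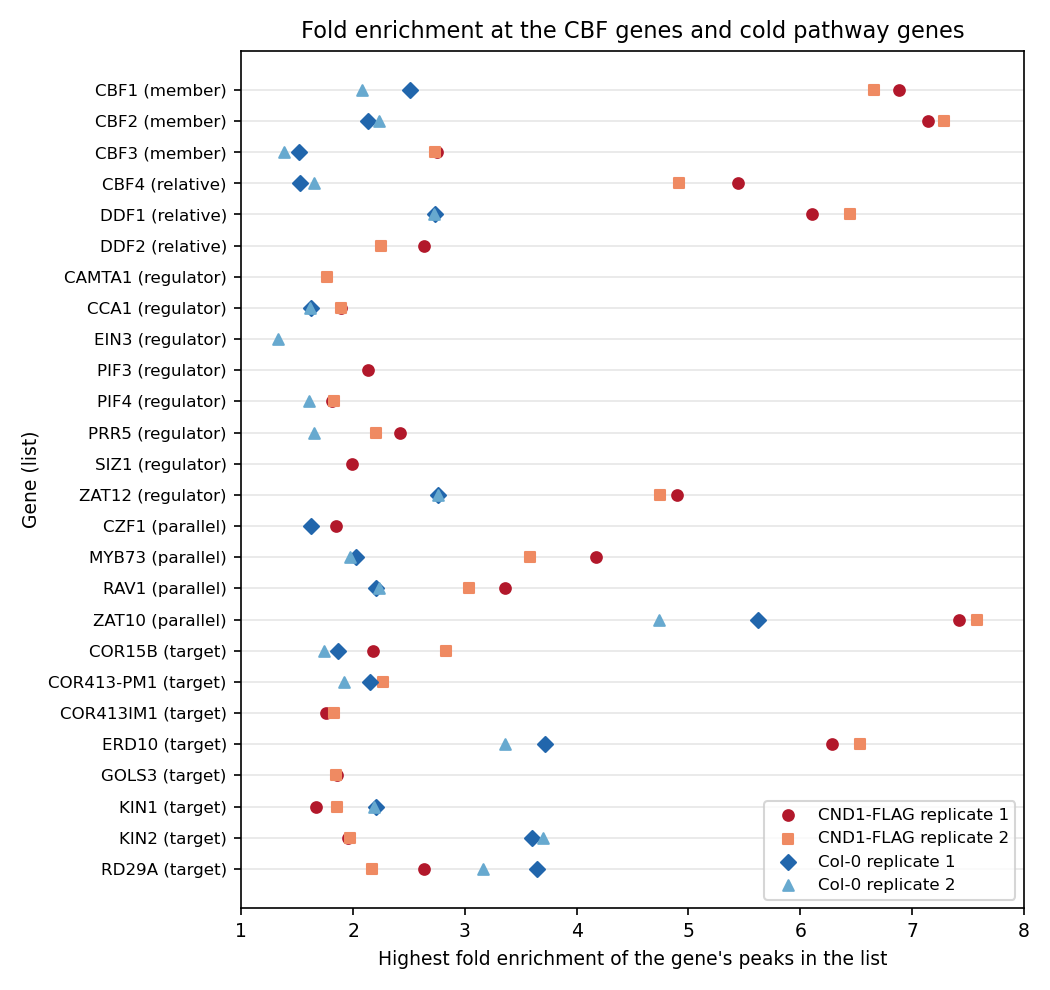
Highest fold enrichment of each gene's peaks in each list (x axis) for the CBF genes and the listed pathway genes that have a peak in any list (y axis). Red and orange symbols are the CND1-FLAG lists and blue symbols the Col-0 lists, and a missing symbol means no peak. CBF1, CBF2, CBF4 and DDF1 reach 4.92 to 7.29 in CND1-FLAG against 1.53 to 2.74 in Col-0, and KIN1, KIN2 and RD29A lie higher in Col-0.

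Genes with the pattern of folds most like each CBF gene were found by Euclidean distance in log2 of the highest fold over the 4 lists. For CBF1 and CBF2 the 3 nearest genes were the same: PERK1 (AT3G24550), a proline-rich receptor-like kinase, AT1G61890, which the files describe as the DETOXIFICATION 37 transporter, and FER3 (AT3G56090), a ferritin of the chloroplast. Their distances were 0.0917, 0.184 and 0.220 from CBF1 and 0.220, 0.299 and 0.302 from CBF2. PERK1 had a fold of 6.99 and 6.64 in CND1-FLAG replicates 1 and 2, against 2.39 and 2.15 in Col-0. For CBF3 they were AT3G54200, AT5G20885, described as the RING finger protein ATL63, and PATL2 (AT1G22530), a patellin, at distances of 0.0825, 0.0851 and 0.100. PATL2 had 2.75 and 2.70 in CND1-FLAG, against 1.53 and 1.47 in Col-0.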

How the data were processed

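The submitters' processing notes name fastp 0.19.11, BWA 0.7.12, MACS2 2.1.0 and the build TAIR10. Which control and threshold each list used, and how multiply matching reads were placed, are not stated. The authors deposited 1 annotated peak list per ChIP library. The signal column was read as a ratio, the fold of a summit over its local background. The p and q columns hold −log10 values, per the file headers. The deposited score is 10 times −log10 q, rounded down. Positions, widths and distances are in base pairs on TAIR10. Positions were read as counted from 1, and each width equals end minus start plus 1. The deposited feature "promoter" reaches 3 kb to either side of a start, so it includes gene bodies.

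Summit lines of identical interval were counted as 1 peak, which took its highest fold and −log10 q. Genes are those the authors assigned, and symbols, gene types and neighbours come from the TAIR10.1 gene table, whose 37899 nuclear genes form the background. Pile-up and local background of each summit were solved from fold, taken as (pile-up + 1) / (background + 1), and from the Poisson p-value. This gave whole fragments, within 0.02, for 100% of the summits of each list, with the ChIP scaled by 0.723 and 0.739 in Col-0 replicates 1 and 2, factors found on 60 summits each. In those 2 lists 448 and 326 summits allowed more than 1 solution, none of them at the CBF genes, and the closest was taken. The lowest background of a list was taken as the genome-wide mean. On 1000 simulated summits of each kind, 100% were recovered.

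No statistical test was made: the members and gene lists were chosen with earlier results of these data known, and 2 against 2 libraries allow little. Genes named are the 3 members, the 2 genes on either side, pathway genes with a peak in both CND1-FLAG lists, and the 3 genes nearest to each member in pattern. Genes between the members count with their neighbours. Pathway genes named for having no peak, COR413-PM1, AT4G07405 and the genes of the closing section other than PERK1, lie outside this rule and were picked with their values in view. Alternatives were stricter peak sets, lists of equal length, other ways of assigning genes and of sharing regions, and leaving out each library. Python 3.11.15, NumPy 2.4.6, pandas 2.3.3, SciPy 1.17.1 and numba 0.67.0 were used. No sequence is shown, since none was used here.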

Additional observations from a re-analysis of the deposited data

How the results depend on the processing

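The 3 CBF genes gave 3 peaks in each list, a difference of 0 between genotypes. This difference became 1 with −log10 q of at least 5, with a fold of at least 2 and in the top 50% of each list. The number of CBF genes in both CND1-FLAG lists and no Col-0 list was 0 as listed and became 1 under these 3 settings and with a reciprocal overlap of 50%. That gene was CBF3 in each case, and CBF1 and CBF2 stayed in all 4 lists under all alternatives run. Of all nuclear genes, 2952 were in the tagged lists alone as listed. Under the 3 settings they numbered 2463, 2066 and 1868, and with the reciprocal overlap 3776. Nuclear genes in all 4 lists fell from 2495 to 733, 312 and 924 under the 3 settings, and to 1757 with the reciprocal overlap. Pathway genes in both CND1-FLAG lists and no Col-0 list numbered 3 as listed, against 2952 of all nuclear genes. With lists of equal length they numbered 1, against 1317 nuclear genes. By merged regions sharing at least 1 bp they numbered 5, against 3690, and with a reciprocal overlap of 50% 4, against 3776. With 1 library left out they numbered 3 to 5, against 3625 to 4942 nuclear genes. The count was 5 without CND1-FLAG replicate 2, against 4942, and 5 without Col-0 replicate 2, against 3625. Pathway genes in all 4 lists numbered 12 as listed and 6 with a fold of at least 2, against 2495 and 312 nuclear genes. Other alternatives stayed within 1.5 times the listed count. No paired analysis was possible because no result comes from a test. Of the 3 CBF genes, CBF3 held the fewest fragments at its strongest summit in each library, and in Col-0 its counting intervals overlap those of CBF1.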

Other observations

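Among the 2495 nuclear genes called in all 4 lists, 3 had a higher ratio of pile-up between the genotypes than CBF1, each a multiple of the genome-wide mean. AT5G29560 had 17.4 in CND1-FLAG against 2.45 in Col-0, a ratio of 7.10. AT3G32980 had 13.3 against 2.54, a ratio of 5.22, and AT3G41761 had 10.03 against 2.39, a ratio of 4.19. PERK1 (AT3G24550), the gene nearest to CBF1 in its pattern of folds, came next after CBF1 with 14.7 against 4.15, a ratio of 3.54. At 176 of the 2495 genes, or 7.05%, the ratio was below 1.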
